A study of Mus musculus with 4 samples.

Results

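The leukocyte adhesion molecules and selectins described here are 9 genes, Sele, Selp, Vcam1, Icam1, Icam2, Selplg, Alcam, Mcam and Madcam1, chosen by name from the 32286 features of a single-cell RNA table of mouse hearts. All 9 symbols were found. No rule on measured values picked them, but they were chosen with earlier results of these data known. The cells came from 4 heart samples, 2 taken after stroke and 2 control samples, both at 1 month. Every sample, stroke and control alike, came from the strain Ccr2creERT2-Ai14, in which an inducible Cre recombinase made from the Ccr2 gene can switch on a tdTomato reporter. The labels give neither the animals' age nor whether the Cre was induced. Hearts were digested for 30 min and strained to hold back cardiomyocytes, red cells were lysed, and live nucleated cells were sorted before 10x Genomics 3′ library preparation. These interstitial cells are the endothelium, fibroblasts, mural cells and leukocytes that lie between the heart muscle cells.

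The genes encode the surface molecules by which blood leukocytes stop on a vessel wall and cross it. E-selectin (Sele) and P-selectin (Selp) on activated endothelium catch passing leukocytes through sugars carried by PSGL-1 (Selplg), and the immunoglobulin-family molecules ICAM-1, ICAM-2 and VCAM-1 then bind leukocyte integrins and hold the cell still. P-selectin is also stored in platelets. Sele, Selp, Icam1 and Vcam1 are known for their induction by inflammatory cytokines, whereas Icam2 is carried by resting endothelium. ALCAM binds CD6 of T cells, MCAM (CD146) is found on endothelium and mural cells, and MAdCAM-1 is the gut address molecule for the integrin made of Itga4 and Itgb7.

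The table gives, for each cell barcode, whole-number UMI counts (molecular tags that mark single captured RNA molecules), in 4 libraries of 9168 to 10473 barcodes and 31955157 to 45834980 UMIs. No label ties a library number to a sample, so no value is assigned to stroke or control and none of them was compared. The table is treated as 1 sample and no test over libraries was run, so no p-value is given and each library's value is shown instead. After filtering and doublet removal 37594 cells were kept, with library medians of 2583 to 3487 UMIs per cell. Of these, 61 to 75 per library had a barcode sequence that also occurred in another library. Cells were clustered without the 9 genes, and clusters were named from marker genes as X-like. The 22723 endothelial-like cells were 60.4% of all cells, the 5108 cells of the leukocyte clusters 13.6% and the other cells 26.0%. Libraries 2 and 3 stood apart in haemoglobin transcripts, which summed to 5590 and 10150 CPM (defined below) in their capillary-like cells, against 53.7 and 30.1 CPM in libraries 1 and 4. Globin genes were left out of the clustering, and their part in the results was not tested.

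Levels are CPM, the UMIs of a gene per 1000000 UMIs of a class, summed over its cells. Intervals in parentheses are 95% intervals that cover counting error only, Poisson for a level, exact conditional for a ratio and Clopper-Pearson for a share of cells. A member was called higher or lower when the ratio of levels reached 2-fold with 10 CPM added to both sides, among genes with at least 20 CPM in either. The share of all genes that passed the same rule is given as the background.

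The kept cells held 21743 UMIs of Icam2, 16965 of Vcam1, 9761 of Alcam, 9217 of Icam1, 4189 of Selplg, 3316 of Mcam, 1286 of Selp, 420 of Sele and 1 of Madcam1. Endothelial-like cells held 88.5% of the Icam2 UMIs and 87.5% of the Mcam UMIs, while the leukocyte clusters held 97.3% of the Selplg UMIs and 72.2% of the Alcam UMIs. Vcam1 was divided between endothelial-like cells, with 52.1% of its UMIs, and non-leukocyte cells outside the endothelium, with 46.2%. Icam1 was spread over endothelial-like (42.9%), leukocyte (28.7%) and other (28.4%) cells. Of the Selp UMIs 34.6% lay in endothelial-like cells and 63.7% in leukocyte clusters, but without library 2 these shares were 57.9% and 38.8%, the reverse order.

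**Figure D1:**
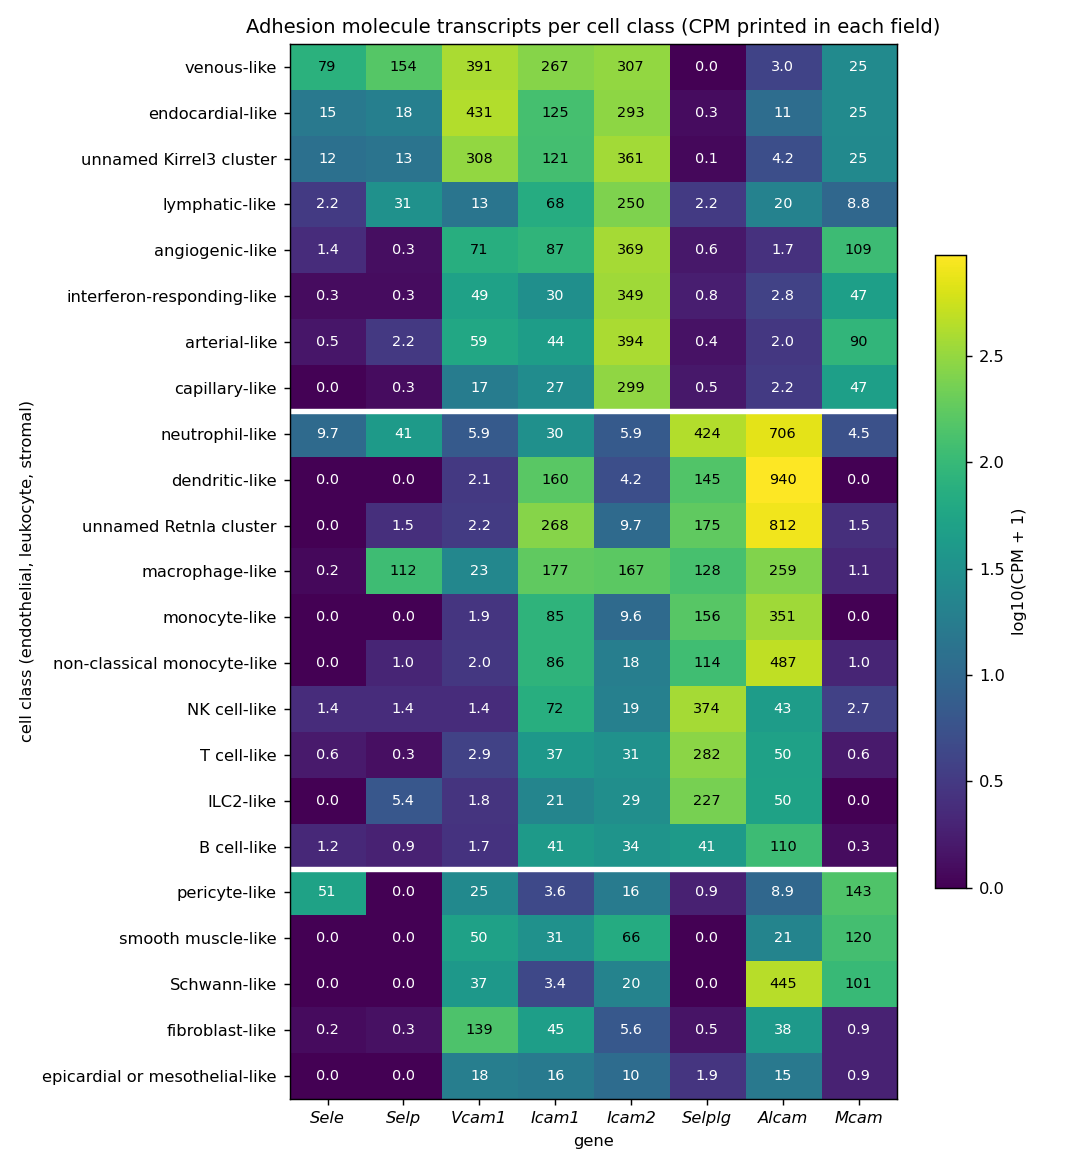
Levels of 8 adhesion molecule genes (columns) in 23 cell classes and clusters (rows), with the CPM of the summed UMIs printed in each field and coloured on a log10 scale of CPM plus 1. The white lines part endothelial, leukocyte and stromal rows. Sele, Selp and Icam1 were highest in venous-like cells at 79.1, 154 and 267 CPM among named classes, Selplg and Alcam in leukocyte rows, and Mcam in pericyte-like cells.

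Across whole compartments, 2 members were called higher in endothelial-like cells than in all other cells, where the background was 11.7% of genes. Icam2 stood at 325 CPM in endothelial-like cells against 28.3 CPM in the rest, 11.5-fold (11.01 to 11.97). Mcam stood at 49.0 CPM in endothelial-like cells against 4.72 CPM in the rest, 10.4-fold (9.36 to 11.5). Selplg and Alcam were called lower there, with 14.3% of genes as background. In the named leukocyte classes against all other cells 3 members were called higher, Selplg, Alcam and Selp, where 13.6% of genes passed, and Vcam1, Icam2 and Mcam were called lower, where 19.3% did. The Selp call rested on 1 macrophage-like cluster described below: without it the log2 ratio was -0.092, and without library 2 it was 0.95.

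Sele and Selp lie on chromosome 1 of build GRCm38 (mm10), Sele at chr1:164048234-164057677 and Selp at chr1:164115264-164150026. Both are on the plus strand, with starts 67030 bases apart. Icam1 lies at chr9:21015985-21028817 on the plus strand and Vcam1 at chr3:116109949-116129688 on the minus strand. Upstream sequence is shown for the members highest in venous-like cells that were matched in the RefSeq promoter table (build GRCm38.p6). Each line gives the 250 bases before the RefSeq start, at chr1:164047984-164048233 for Sele, chr1:164115014-164115263 for Selp and chr9:21015690-21015939 for Icam1, read on the plus strand. Capitals mark matches, on either strand, to GGGNNNNNCC, a loose form of the site bound by the inflammatory transcription factor NF-kB.
Sele: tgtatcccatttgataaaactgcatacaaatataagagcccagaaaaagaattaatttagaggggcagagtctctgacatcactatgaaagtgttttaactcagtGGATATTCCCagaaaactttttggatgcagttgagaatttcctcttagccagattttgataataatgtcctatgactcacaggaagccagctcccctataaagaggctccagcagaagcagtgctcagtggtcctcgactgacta
Selp: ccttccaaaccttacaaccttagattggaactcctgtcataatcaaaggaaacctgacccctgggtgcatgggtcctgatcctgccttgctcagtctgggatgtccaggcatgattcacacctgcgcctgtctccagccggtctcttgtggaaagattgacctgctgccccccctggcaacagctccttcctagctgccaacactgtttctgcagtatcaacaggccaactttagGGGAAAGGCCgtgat
Icam1: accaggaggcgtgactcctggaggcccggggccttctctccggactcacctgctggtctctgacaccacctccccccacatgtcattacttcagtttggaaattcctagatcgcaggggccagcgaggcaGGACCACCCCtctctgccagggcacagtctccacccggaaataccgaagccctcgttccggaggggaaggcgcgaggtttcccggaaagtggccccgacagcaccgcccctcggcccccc
Each of the 3 windows held 1 match, at -145 to -136 from the start for Sele, -120 to -111 for Icam1 and -15 to -6 for Selp. Such a match is common, present in 45.8% of the 32851 promoter windows of the same length, and describes letters only. The table also held Alcam, with no match, Mcam, with 6, and Madcam1, with 4 overlapping matches counted on both strands.

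Venous-like endothelium stood out among the endothelial subtypes for 4 members, although the pooled Vcam1 level was higher in endocardial-like cells. This cluster had 163 cells, 45, 35, 19 and 64 in libraries 1 to 4, and its venous markers included Vwf at 2938, Cpe at 1028, Lrg1 at 509 and Nr2f2 at 467 CPM, with Ackr1 at 23.9 CPM. With 10 CPM added to both sides, 5 of 8 venous markers were at least 2-fold above the other endothelial-like cells, as were 3 of 9 endocardial markers, whose sum was 1049 CPM in venous-like cells and 1012 CPM in the rest. In the score used for naming, the mean log2 ratio of a list's markers to clusters not carrying that name, with 20 CPM added, venous markers stood at 1.73 and endocardial ones at 1.56. With doublets kept the matching cluster, of 351 cells, scored higher for endocardial markers and stayed unnamed. The part of this in the levels of Vcam1 and Icam1 was not tested. Sele, Selp, Icam1 and Vcam1 were called higher than in the other endothelial-like cells, 4 of the 6 members at 20 CPM, where 5.04% of 7326 genes were called higher. None of the 6 was called lower, where the background was 7.51%. Each of the 4 was higher in venous-like cells in 4 of 4 libraries. For Vcam1 in library 1 the levels were close, 204 CPM against 195 CPM in the other endothelial-like cells.

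Selp, the stored selectin that acts first in leukocyte capture, reached 86.0, 289, 126 and 142 CPM in the venous-like cells of libraries 1 to 4. Its pooled level was 154 CPM (125 to 186) in venous-like cells, against 5.84 CPM in other endothelial-like cells, a ratio of 26.3 (20.9 to 32.9). The lowest venous-like library thus lay well above the pooled level of the rest. Selp was detected in 33.1% of venous-like cells (26.0 to 40.9), whose median depth was 3628 UMIs, against 0.143% of fibroblast-like cells, a class that should lack it, at 6422.5 UMIs. After thinning each cell to 1000 UMIs, which kept 160 and 8283 cells, the shares were 14.4% and 0.0362%.

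Sele, the selectin that endothelium makes only on activation, was rarer and less even. It reached 32.3, 252, 21.0 and 43.3 CPM in venous-like cells of libraries 1 to 4, so that library 2 lay far above the other 3. The pooled level was 79.1 CPM (59.2 to 103) in venous-like cells, against 4.59 CPM in other endothelial-like cells, a ratio of 17.2 (12.6 to 23.2). A single cell of library 2 held 20 of the 53 Sele UMIs, 37.7% of them. Without that cell the venous-like level was 49.8 CPM and the ratio 10.8, and without library 2 they were 35.5 CPM and 10.3, still past the 2-fold rule. In capillary-like cells, the most numerous class, Sele was seen with 1 UMI in 11402 cells.

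Icam1, a ligand of the leukocyte integrins LFA-1 and Mac-1, reached 226, 548, 105 and 209 CPM in venous-like cells. It stood at 267 CPM (229 to 309) in venous-like cells, against 64.4 CPM in other endothelial-like cells, a ratio of 4.15 (3.55 to 4.82). Vcam1, the ligand of the integrin VLA-4, reached 204, 971, 158 and 307 CPM. It stood at 391 CPM (345 to 441) in venous-like cells, against 146 CPM in other endothelial-like cells, a ratio of 2.67 (2.35 to 3.02). Here too library 2 was highest, and without it the Vcam1 ratio was 1.68, below the 2-fold rule, while that of Icam1 was 3.09 and that of Selp 20.4. Venous-like cells of library 2 also had the highest sums of 12 early-response genes, known to be switched on by digestion (1495, 2178, 1126 and 1090 CPM in libraries 1 to 4), and of 8 interferon-responding genes (129, 356, 189 and 232 CPM). The part of these in the result was not tested.

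The other endothelial members did not share this pattern. Icam2 stood at 307 CPM in venous-like cells and 325 CPM in other endothelial-like cells, a ratio of 0.95 (0.82 to 1.08). Mcam stood at 25.4 CPM in venous-like cells and 49.2 CPM in other endothelial-like cells. Alcam had 2 UMIs and Selplg none in the venous-like cells, which allows up to 3 UMIs.

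Within single venous-like cells the 4 inducible molecules were mostly seen 1 or 2 at a time. None of Sele, Selp, Icam1 and Vcam1 was detected in 33 of the 163 cells, 1 in 59, 2 in 48, 3 in 18 and all 4 in 5 cells. Of the 20 cells with Sele, 6 also held Selp (30.0%), against 33.6% of the cells without Sele. Vcam1 was found in 15 of those 20 cells and Icam1 in 12. The cells with Sele were deeper, with a median of 5176 UMIs against 3459 in those without it, and the part of depth was not tested.

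**Figure D2:**
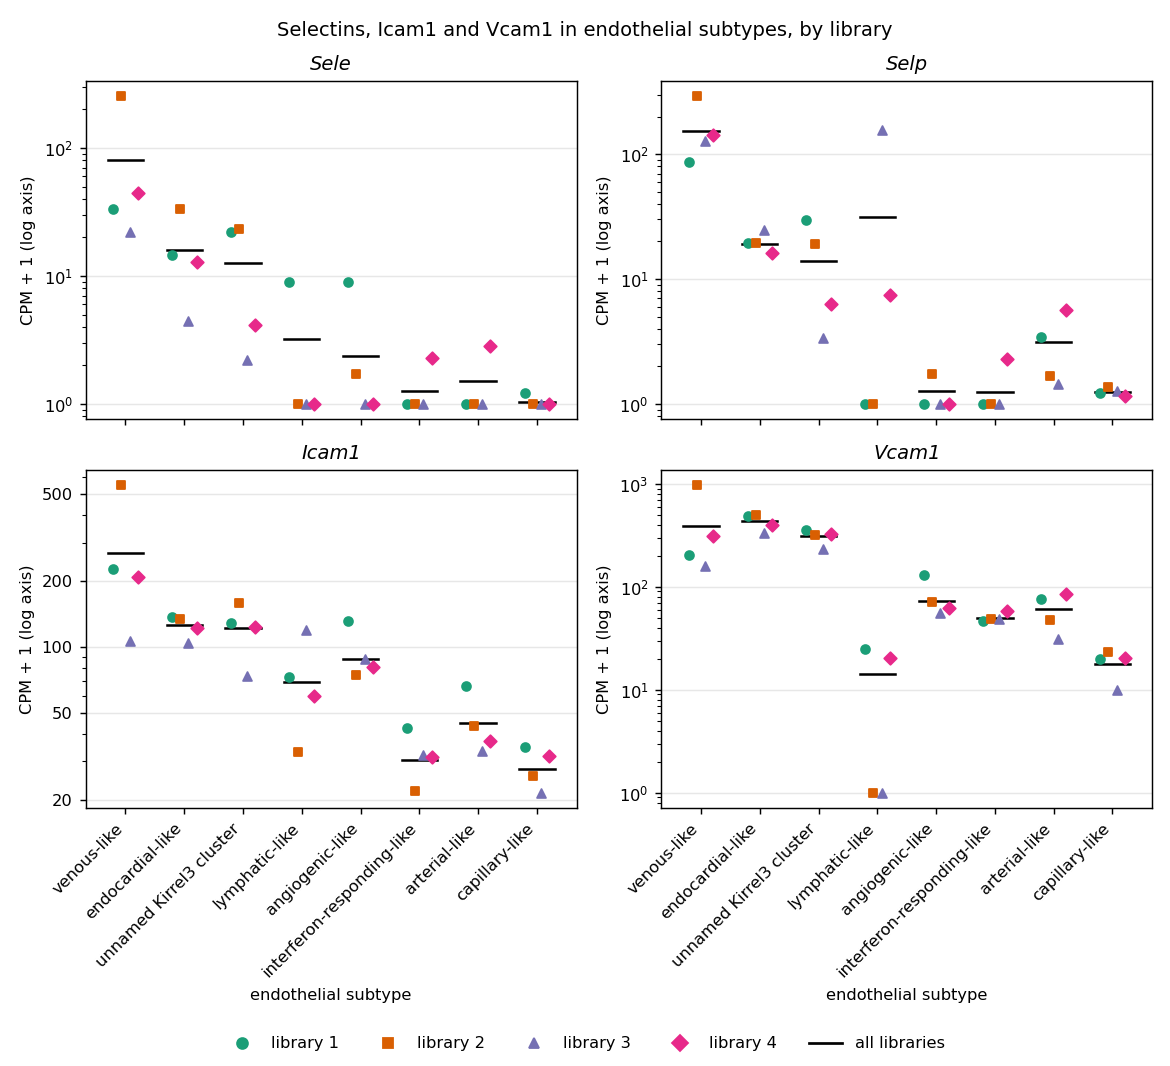
Sele, Selp, Icam1 and Vcam1 in 8 endothelial subtypes, as CPM plus 1 on a log axis, with a point for each library and a black line for the pooled level. Venous-like cells lie leftmost; their library 2 is the highest point for all 4 genes, and their pooled Selp level of 154 CPM is above that of every other endothelial subtype shown.

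Endocardial-like cells, the lining of the heart chambers, were the highest class for Vcam1. It reached 484, 502, 330 and 398 CPM in libraries 1 to 4, with a pooled 431 CPM (420 to 443) in 2769 endocardial-like cells, against 78.2 CPM in the other endothelial-like cells, a ratio of 5.52 (5.29 to 5.76). The endocardial-like and venous-like ranges over libraries overlapped, so these neighbours were not separated, and without library 1 the venous-like level was the higher one. Icam1 was also called higher, at 125 CPM in endocardial-like cells against 51.9 CPM in the rest, a ratio of 2.41 (2.26 to 2.58). These 2 calls stand against a background of 8.84% of genes. Sele at 14.9 CPM and Selp at 18.0 CPM stayed under the 20 CPM needed for a call, although both were higher than in the other endothelial-like cells in 4 of 4 libraries.

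Endocardial-like clusters differed among themselves. In the large cluster led by Npr3, H19 and Tmem108 (2247 cells) Vcam1 stood at 418 CPM, Icam1 at 138 CPM and Selp at 11.1 CPM. In 78 cells led by Cytl1 and Efna5, which had 5 of 9 arterial markers and 3 of 9 endocardial ones at least 2-fold above the other endothelial-like cells, Selp reached 153 CPM (114 to 201), close to the venous-like level, with 131, 179, 139 and 150 CPM in libraries 1 to 4. Vcam1 stood there at 537 CPM and Icam2 at 495 CPM. In 444 cells led by Lsamp and Ccdc141, Vcam1 was at 475 CPM while Icam1 was at 68.4 CPM and Mcam at 7.80 CPM. The 3 clusters thus shared a high Vcam1 level, and Selp was strongest in the smallest.

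An unnamed endothelial cluster of 2287 cells, led by Kirrel3, was the next subtype for Vcam1. Vcam1 reached 358, 319, 233 and 327 CPM in libraries 1 to 4, a pooled 308 CPM in the Kirrel3 cluster against 128 CPM in the other endothelial-like cells, 2.40-fold (2.29 to 2.52). This was its 1 call, with 1.27% of genes as background. Icam1 stood at 121 CPM in the cluster against 59.5 CPM in the rest. Sele (11.6 CPM) and Selp (12.9 CPM) came largely from few cells, since 1 cell held 17 of the 80 Sele UMIs and another 25 of the 89 Selp UMIs. The cluster also held venous markers, with Vwf at 301, Il1r1 at 226, Nr2f2 at 188 and Ephb4 at 159 CPM, but Lrg1 at 14.8 CPM and 1 UMI of Ackr1. The 3 subtypes with Vcam1 above 300 CPM were therefore venous-like, endocardial-like and this cluster.

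Capillary-like cells, the most abundant class, were low in the inducible molecules. Vcam1 stood at 16.6 CPM in capillary-like cells against 239 CPM in the other endothelial-like cells, and Icam1 at 26.8 CPM against 93.8 CPM, both called lower where 4.94% of genes were. Vcam1 was detected in 2.78% of capillary-like cells at a median depth of 1944 UMIs, against 1.17% of T cell-like cells, a class that should lack it, at 4336.5 UMIs. After thinning the shares were 1.51% of 9968 and 0.451% of 665 cells. Interferon-responding cells were called lower for the same 2 genes, with a background of 3.17%. Icam2 stood at 299 CPM in capillary-like cells, with libraries between 276 and 324 CPM.

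Arterial-like cells were highest for Icam2, with 457, 403, 354 and 370 CPM in libraries 1 to 4 and 394 CPM pooled. Angiogenic-like (369 CPM) and interferon-responding (349 CPM) cells followed with overlapping library ranges, so the order of these classes is not fixed by the data. No member was called higher in arterial-like cells, where 1.95% of genes were. Vcam1 was called lower, at 59.5 CPM in arterial-like cells against 163 CPM in the other endothelial-like cells, with a background of 3.25%. Within arterial-like cells Vcam1 differed, at 123 CPM in the cluster led by Fbln5, Nebl and Sema3g against 25.5 CPM in that led by Alox12, and Icam2 was 518 CPM against 328 CPM. Mcam, which supports junctions and migration, stood at 89.8 CPM in arterial-like cells against 42.7 CPM in the rest, just short of the rule. It was called higher in angiogenic-like cells, at 109 CPM against 45.1 CPM, where 1.43% of genes passed.

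Lymphatic-like cells (149) carried Icam2 at 250 CPM and Icam1 at 68.0 CPM, while Vcam1 had 6 UMIs and Mcam 4 UMIs. The 1 member called higher was Selp, at 30.7 CPM against 7.33 CPM in the other endothelial-like cells (background 7.55%). This call came from 14 UMIs, of which 1 cell held 7. By library Selp was 0, 0, 154 and 6.52 CPM, and without library 3 the log2 ratio was -0.56.

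Selp was also strong outside the endothelium, in a cluster present mainly in libraries 2 and 4. A cluster of 114 macrophage-like cells led by Prg4, Saa3 and Alox15 held 701 of the 1286 Selp UMIs, 54.5%, and 29.7% of them without library 2. Its cells numbered 0, 77, 3 and 34 in libraries 1 to 4, so it could be read in libraries 2 and 4, where Selp stood at 567 and 414 CPM. Selp was detected in 105 of its 114 cells (92.1%, at a median depth of 11487 UMIs), and in none of the 969 other macrophage-like cells. Taking 3 UMIs as the most that a count of 0 allows over those cells, the level of 539 CPM was at least 889-fold higher. After thinning to 1000 UMIs the share of cells with Selp was 28.8% of 111 cells.

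The same cluster carried Icam2, which in the mouse is a surface marker of the large macrophages of the peritoneal cavity. Icam2 stood at 793 CPM in library 2 and 746 CPM in library 4, and at 775 CPM pooled against 7.28 CPM in the other macrophage-like cells, a ratio of 106 (76.4 to 153). This was also above the 394 CPM of arterial-like endothelium. Selplg stood at 315 CPM in the cluster against 79.4 CPM in the other macrophage-like cells, so that both Selp and its ligand were present. Selp, Icam2 and Selplg were the 3 members called higher, with 8.14% of genes as background. Vcam1 was called lower, at 3.85 CPM against 27.5 CPM, with 12.7%. Of the 105 cells with Icam2, 99 also held Selp, which was detected in 105 of all 114 cells of the cluster.

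Markers of other Selp-bearing cells were measured in this cluster. The 8 endothelial markers summed to 192 CPM, all 8 were detected, and Pecam1 was at 23.9, Cdh5 at 23.1 and Cldn5 at 1.54 CPM. Of the 8 platelet genes 7 had UMIs and summed to 2733 CPM, of which Pf4, also a macrophage gene, gave 2714 CPM, Ppbp 6.93 and Gp9 4.62 CPM, and Gp1bb was at 0. The macrophage genes C1qa and C1qb were at 2950 and 3425 CPM and Adgre1 at 638 CPM. Their part in the Selp level was not tested.

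**Figure D3:**
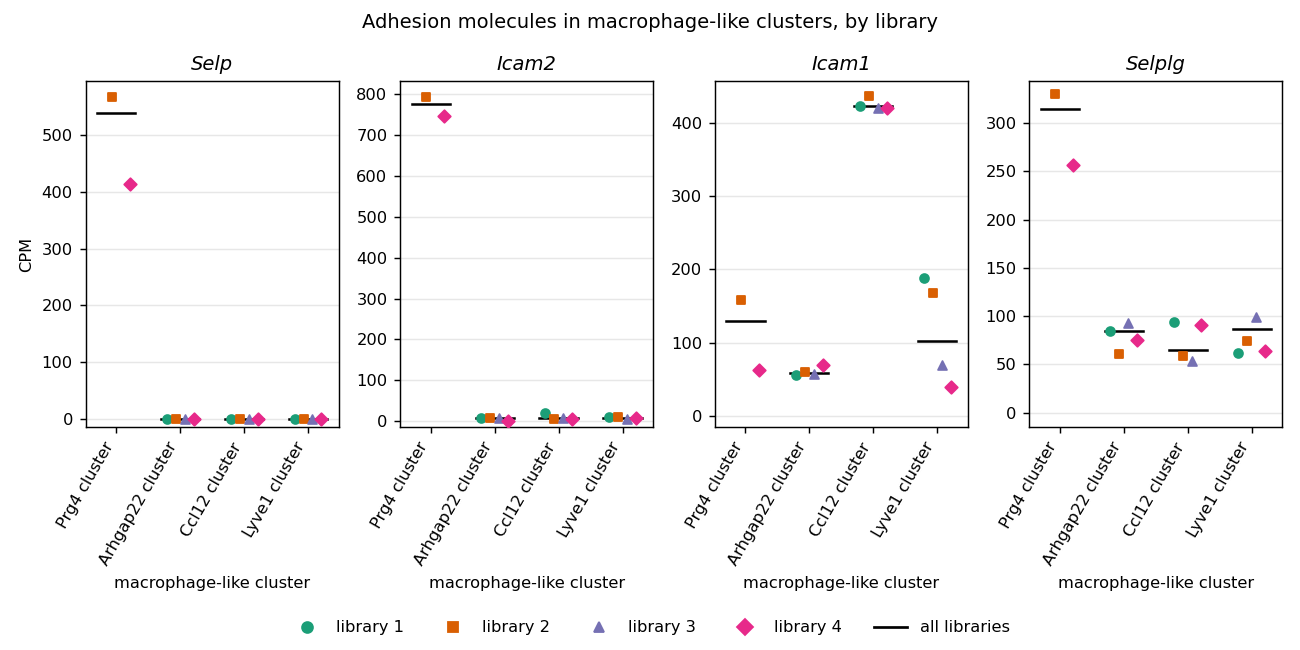
Selp, Icam2, Icam1 and Selplg in the 4 macrophage-like clusters, in CPM on linear axes, with a point for each library that gave at least 10 cells and a black line for the pooled level. The Prg4 cluster, at the left, has points from libraries 2 and 4 and stands alone for Selp (539 CPM) and Icam2 (775 CPM), while Icam1 is highest in the Ccl12 cluster (423 CPM).

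Selp was also found in neutrophil-like cells, at 26.9, 66.4, 30.8 and 34.9 CPM in libraries 1 to 4 and 40.9 CPM pooled (30.8 to 53.2). It was detected in 10.1% of 415 cells at a median of 2971 UMIs, against 0.147% of T cell-like cells at 4336.5 UMIs. In the cluster led by Il1r2 and Retnlg, Selp stood at 48.4 CPM, against 7.97 CPM in 37 cells led by the granule genes Ngp, Camp and Ltf. Of the 8 platelet genes 5 had UMIs in neutrophil-like cells and summed to 35.7 CPM, led by Pf4 at 19.3 CPM, with Gp1bb, Gp1ba and Gp6 at 0. By library the platelet sum was 0, 2.77, 5.13 and 121 CPM, so it was highest in library 4, while Selp was highest in library 2. Their part in the Selp level was not tested. Sele had 13 UMIs in neutrophil-like cells, 9.66 CPM.

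Icam1 was shared between vessel lining and myeloid cells. In macrophage-like cells it reached 238, 184, 169 and 141 CPM in libraries 1 to 4, a pooled 177 CPM (166 to 187) against 51.3 CPM in the other named leukocytes. Selp, Icam2, Icam1 and Vcam1 were called higher in macrophage-like cells, 4 members with a background of 12.2%, of which the first pair rested on the Prg4 cluster. The cluster led by Ccl12, Ccl7 and Ccl2 carried most Icam1 per UMI, at 422, 437, 420 and 420 CPM, a narrow range. The Lyve1 cluster stood at 103 CPM and ranged between 40.1 and 189 CPM, and the Arhgap22 cluster at 58.9 CPM. An unnamed cluster of 146 cells led by Retnla and Cd209a reached 268 CPM. Dendritic-like cells stood at 160 CPM, and their library range overlapped that of macrophage-like cells.

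Vcam1 was scarce on leukocytes. It had 141 UMIs in macrophage-like cells, 22.6 CPM with libraries between 9.92 and 47.5 CPM, and between 1 and 13 UMIs in each of the other named leukocyte classes of 50 or more cells. The Ccl12 cluster stood at 44.1 CPM and the Arhgap22 cluster at 43.3 CPM, against 3.96 CPM in the Lyve1 cluster.

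Selplg, the glycoprotein ligand through which leukocytes bind both selectins, lay almost wholly in leukocytes. It stood at 149 CPM in named leukocyte classes against 6.08 CPM in all other cells, and at 0.44 CPM in endothelial-like cells. Neutrophil-like cells were highest, at 207, 459, 446 and 497 CPM in libraries 1 to 4 and 424 CPM pooled (390 to 460). NK cell-like cells followed at 374 CPM, T cell-like cells at 282 CPM and ILC2-like cells at 227 CPM, and neighbours in this order overlapped between libraries. B cell-like cells were lowest among named leukocytes at 41.0 CPM (36.6 to 45.9). In them none of the 5 members at 20 CPM was called higher than in other leukocytes, where 5.68% of genes were, and 5 were called lower, where 17.2% were. The neutrophil-like and T cell-like classes and NK cell-like cells were called higher than other leukocytes, 3.22-fold, 2.20-fold and 2.65-fold, where 12.6%, 6.03% and 7.7% of genes were.

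The low library 1 value in neutrophil-like cells went with its makeup. There 19 of the 43 cells were of the Ngp cluster, in which Selplg stood at 91.7 CPM, while the Il1r2 cluster stood at 501, 508, 466 and 531 CPM in libraries 1 to 4. Alcam showed the same split, at 826 CPM in the Il1r2 cluster against 183 CPM in the Ngp cluster.

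Alcam, an immunoglobulin-family molecule that binds CD6, was led by antigen-presenting and myeloid cells. Dendritic-like cells stood at 829, 1134 and 913 CPM in libraries 1 to 3, library 4 having 9 cells, and at 940 CPM pooled (855 to 1031). Neutrophil-like cells were highest instead in 6 of 14 alternative settings, among them leaving out any 1 library, which takes the dendritic-like class below 50 cells. Dendritic-like cells were called higher than other leukocytes, 4.30-fold, with 7.12% of genes as background. The unnamed Retnla and Cd209a cluster stood at 812 CPM with libraries between 707 and 880 CPM, neutrophil-like cells at 706 CPM and non-classical monocyte-like cells at 487 CPM, with non-classical monocyte-like cells called higher than other leukocytes (2.33-fold, background 11.3%). The lymphoid classes lay far lower, with B cell-like cells at 110 CPM and T cell-like cells at 49.6 CPM. Endothelial-like cells had 4.27 CPM. Outside the leukocytes, Schwann-like cells (114) stood at 445 CPM (372 to 528), 12.1-fold over other stromal cells where 11.2% of genes were called higher. Mcam, at 101 CPM, was the other member called higher in Schwann-like cells. In fibroblast-like cells Alcam was uneven, at 94.2 CPM in the cluster led by Mfap4 and Osr1 against 13.3 CPM in that led by Cxcl14.

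**Figure D4:**
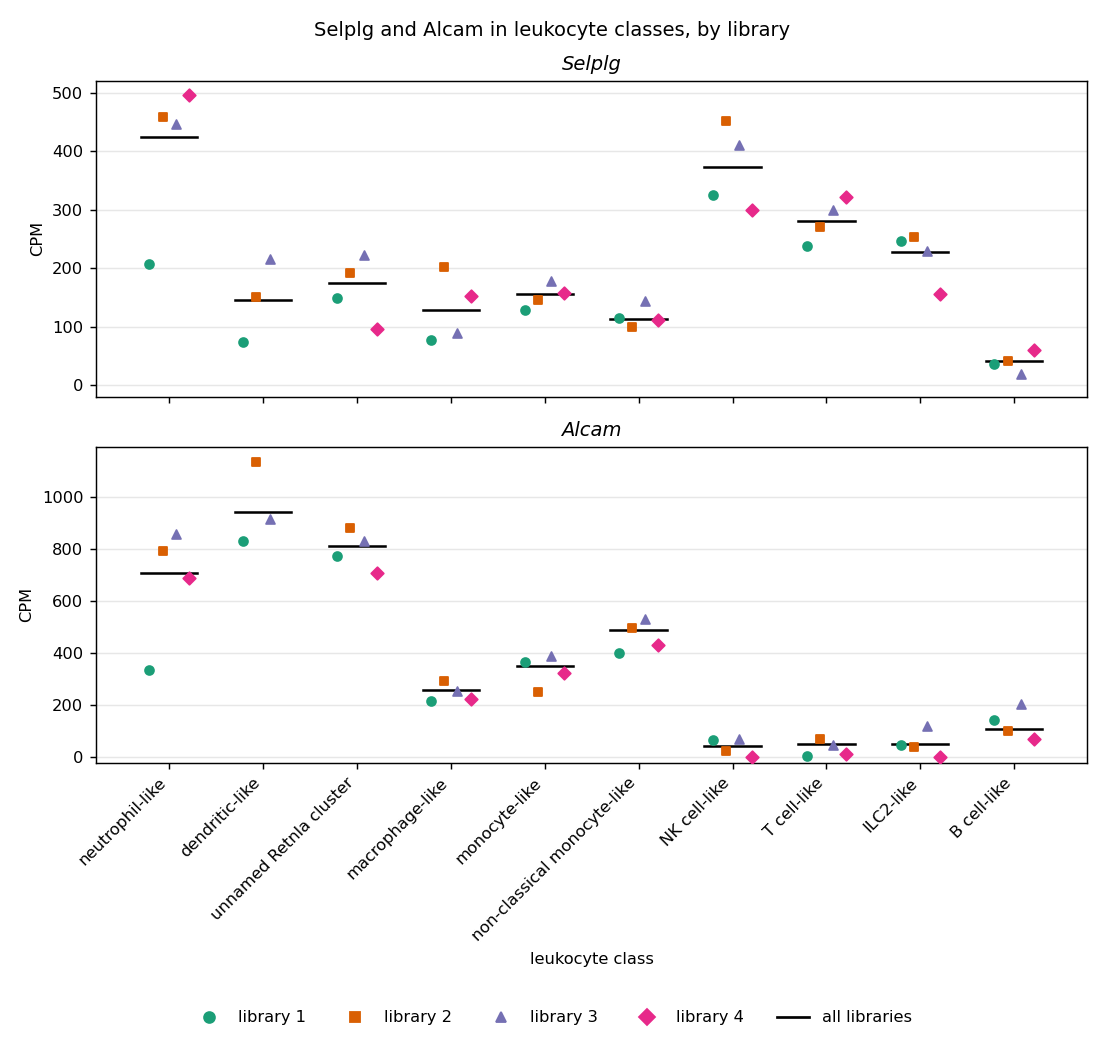
Selplg (top) and Alcam (bottom) in 10 leukocyte classes and clusters, in CPM on linear axes, with a point for each library that gave at least 10 cells and a black line for the pooled level. Neutrophil-like, NK cell-like and T cell-like cells lead for Selplg at 424, 374 and 282 CPM, and dendritic-like cells for Alcam at 940 CPM, with lymphoid classes at 110 CPM or less.

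Partners of these molecules on leukocytes were counted from fixed lists. Of 9 leukocyte integrin genes, 5 of the 6 at 20 CPM were called higher in named leukocyte classes than in all other cells and none lower, and the list's median log2 ratio was 3.61 against -0.15 over all genes. Itga4, the alpha chain that binds VCAM-1 and MAdCAM-1, was highest in non-classical monocyte-like cells at 2005 CPM, against 121 CPM in macrophage-like cells. Itgal, the alpha chain of LFA-1, stood at 1167 CPM in non-classical monocyte-like cells, and Itgb2, its beta chain, at 683 CPM. Itgal is also a marker used to name that class, so its level there follows in part from the naming. Among 14 selectin ligands and their enzymes, 6 of the 8 at 20 CPM were higher in neutrophil-like cells than in other leukocytes and 1 lower, where 12.6% and 38.2% of all genes were, and those higher included Cd44 at 1469 CPM and Cd24a at 279 CPM. The enzyme gene Fut7, which builds selectin-binding sugars, peaked at 7.61 CPM, in non-classical monocyte-like cells. Cd6, the ALCAM receptor, was highest in T cell-like cells at 106 CPM.

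On the vessel side the lists were counted in venous-like cells, where 5.04% of all genes were called higher and 7.51% lower. Of the selectin-ligand list 2 of 9 genes at 20 CPM were called higher than in other endothelial-like cells, St3gal4 at 263 and Gcnt1 at 67.2 CPM. Of the counter-receptor and granule list 2 of 5 were, Vwf at 2938 CPM, the granule partner of P-selectin, and Ackr1. Both are venous markers used to name this cluster, so these 2 calls follow in part from the naming. None of 8 genes of NF-kB and cytokine receptors was called in either direction, with a list median log2 ratio of -0.10 against -0.14 over all genes. None of 9 junction genes was higher and 1 was lower. Of 9 early-response genes 2, Fos and Atf3, were higher, at 194 and 55.2 CPM in venous-like cells. In endocardial-like cells 0 of 9 junction genes were higher and 4 lower, where 8.84% and 8.85% of all genes were.

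Pericyte-like cells, the mural cells of small vessels, were the second class for Sele. It stood at 42.9, 56.3, 35.0 and 75.3 CPM in libraries 1 to 4 and 50.9 CPM pooled (38.6 to 65.9), against 0.22 CPM in the other stromal classes. All 4 libraries overlapped the venous-like range, so these neighbours were not separated. The 57 UMIs lay in 45 of 494 cells, 9.11% (6.72 to 12.0) at a median of 2081 UMIs, with at most 4 in a cell, against 0.155% of fibroblast-like cells at 6422.5 UMIs. After thinning, the shares were 4.07% of 442 pericyte-like cells and 0.0362% of 8283 fibroblast-like cells. The share of cells with Sele was thus of like size in the 2 classes, at 9.11% of pericyte-like and 12.3% of venous-like cells.

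Selp had no UMI in pericyte-like cells. Icam1 with 4 UMIs (3.57 CPM), Vcam1 at 25.0 CPM and Alcam at 8.93 CPM were called lower than in other stromal classes, where 10.8% of genes were. The 8 endothelial markers were all detected in pericyte-like cells and summed to 350 CPM, with Pecam1 at 42.0 and Cdh5 at 45.5 CPM, against 20250 CPM for the 8 pericyte markers. Their part in the Sele level was not tested.

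Mcam was highest in the 2 mural classes. It stood at 142, 119, 199 and 123 CPM in pericyte-like cells of libraries 1 to 4, 143 CPM pooled (122 to 167) against 2.44 CPM in other stromal classes. Smooth muscle-like cells stood at 120 CPM, angiogenic-like at 109 CPM, Schwann-like at 101 CPM and arterial-like at 89.8 CPM, and each overlapped its neighbour between libraries. Sele and Mcam were the 2 members called higher in pericyte-like cells, with 10.3% of genes as background. Of the 45 pericyte-like cells with Sele, 20 held Mcam (44.4%), against 24.7% of those without it, with median depths of 2523 and 2005 UMIs. In smooth muscle-like cells Mcam and Icam2 were called higher (background 10.6%), Icam2 at 66.1 CPM beside Pecam1 at 153 and Cdh5 at 124 CPM, whose part was not tested.

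**Figure D5:**
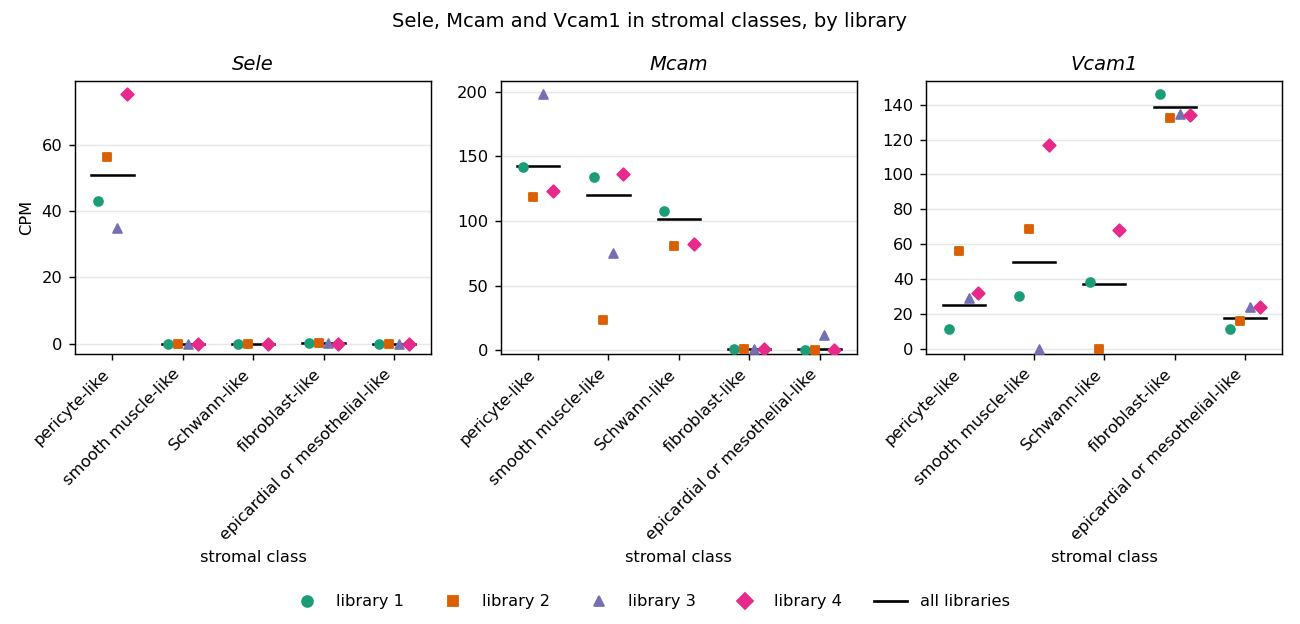
Sele, Mcam and Vcam1 in 5 stromal classes, in CPM on linear axes, with a point for each library that gave at least 10 cells and a black line for the pooled level. Pericyte-like cells, at the left, carry Sele in all 4 libraries (35.0 to 75.3 CPM) and the other classes next to none, whereas Vcam1 is highest in fibroblast-like cells at 139 CPM.

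Fibroblast-like cells gave 7660 of the 16965 Vcam1 UMIs. The level was even over libraries, at 146, 132, 135 and 134 CPM, and 139 CPM pooled against 25.1 CPM in the other stromal classes, 5.52-fold (4.54 to 6.79). Icam1 was the other member called higher, at 44.9 CPM in fibroblast-like cells against 13.2 CPM, and the background was 6.03%. Among fibroblast-like clusters of 200 or more cells Vcam1 ranged between 85.2 CPM, in 2132 cells led by Gfpt2 and Cd248, and 212 CPM, in 226 cells led by Erbb4 and Wif1. The Cxcl14 cluster, the largest with 3701 cells, stood at 172 CPM with libraries between 158 and 183 CPM.

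Madcam1 had 1 UMI, in an angiogenic-like cell, so its level cannot be ordered between classes. The venous-like cells had none, which allows up to 3 UMIs or 4.48 CPM.

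The genes whose levels followed each member most closely over the 23 named classes of 50 or more cells are given as Pearson correlations of log2(CPM + 10), over classes of the same 4 libraries. For Selp they were Lrg1 (0.91), Chp2 (0.87) and Lyve1 (0.77), and for Sele they were Kirrel3 (0.78), Gm29683 (0.77) and Fjx1 (0.76). Vcam1 was followed by Foxc1 (0.89), Ccn1 (0.87) and Spats2 (0.87). Lrg1, Lyve1 and Foxc1 are also markers used to name classes, so these matches are not independent of the naming. Icam1 had only looser matches, Tm6sf1 (0.70), Ctsh (0.70) and Elmo1 (0.70). Icam2 was followed by Tal1 (0.93), Shank3 (0.91) and Afap1l1 (0.91). Selplg was followed by Pstpip1 (0.99), Arhgap9 (0.98) and Cd53 (0.97). Alcam went with Mthfsl (0.94), Csf2ra (0.90) and Pak1 (0.88), and Mcam with Pcdh1 (0.92), Sept4 (0.89) and Gjc1 (0.89). Among the inducible members the correlations were 0.56 between Icam1 and Selp, 0.52 between Sele and Selp and 0.46 between Vcam1 and Sele. They were 0.32 between Vcam1 and Selp, 0.22 between Vcam1 and Icam1 and 0.15 between Icam1 and Sele.

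Vcam1, Icam1, Selp and Mcam each overlap annotated genes on the opposite strand in GENCODE M21, and no member overlaps another gene on its own strand. These antisense genes have rows of their own in the table. The sources used here do not say how strand was used in counting.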

How the data were processed

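The authors deposited 1 joined matrix of UMI counts for 4 libraries, made with Cell Ranger 7.1.0 on mm10 per the submitters' processing notes; no other step is stated. Cells with at least 500 UMIs, 250 genes and at most 15% mitochondrial UMIs were kept, and 1316 doublets marked by Scrublet were removed. In library 3 its automatic threshold of 0.613 marked 0 of 8813 cells, so 0.208, the median of the other libraries, was used. Clustering used scanpy 1.11.5 and leidenalg 0.10.2 (2000 variable genes, 30 components, resolution 1) without the 9 members, the partner lists, the reporter, mitochondrial, ribosomal, globin and sex-linked genes. A class took its name from markers, with at least 3 of them at 2-fold or more. Clusters of under 20 cells, or in which markers of another class led, stayed unnamed. UMIs were summed per class and divided by the class total. The 9 members, the 3 genes most like each in classes of at least 50 cells, and up to 4 called genes per list with the highest CPM were named. The members and lists were chosen with earlier results of these data known. The calling rule was run on simulated counts with seeded changes. Those counts had no spread between cells or libraries, so the run cannot show how that spread affects the calls. No label ties a library to a sample, and no test over libraries was run. Intervals and limits for a count of 0 (3 UMIs) cover counting error only. Alternatives changed the cell filter, doublets, resolution, cell weighting, depth, added CPM, low-gene filter and libraries. Promoters are from the RefSeq table and positions from GENCODE M21. A gene of the selectin-ligand list is counted but not reported here by name.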

Additional observations from a re-analysis of the deposited data

How the results depend on the processing

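No paired analysis was possible because no label ties a library to a stroke or control sample. Of 9 members, 5 were highest in an endothelial subtype, and this count was 3 with doublets kept, 2 at Leiden resolution 2, and 4 to 5 leaving out each library in turn. The share of all genes highest in such a subtype is not given, so the count describes these members only. With doublets kept no cluster was named venous-like, so that setting gave no venous value. At resolution 2 the venous-like class took in part of the Kirrel3 cluster. The count of members called higher was 4 in venous-like cells and ranged from 3 to 4 leaving out each library. The same count in leukocytes was 3 and ranged from 2 to 3. The arterial count of 0 was 1 with 1 CPM added, and 0 to 1 leaving out each library, where Mcam passed without library 3. The lymphatic count of 1 was 2 under the stricter cell filter and 2 with no minimum CPM, and 1 to 2 leaving out each library. The log2 ratio of Selp in lymphatic-like cells was -0.56 without library 3 and ranged from there to 1.65 leaving out each library, and in leukocytes it was -0.092 without the Prg4 cluster, a setting chosen after seeing the data, as were the Selp shares without each library, keeping globin genes and leaving out the venous-like cell with most Sele. Vcam1 was highest in venous-like cells without library 1, and Sele in pericyte-like cells without library 2 or without that cell. Where no value is given, the cause was not tested. Venous-like cells number 163 and lymphatic-like cells 149, which limits their precision.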
